A study of Mus musculus with 4 samples.

Results

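Chemokines are small proteins that attract leukocytes along a gradient, and the 10 described here are chemokine ligand genes that macrophages transcribe: Ccl2, Ccl3, Ccl4, Ccl5, Ccl6, Ccl7, Ccl9, Cxcl2, Cxcl10 and Cxcl16. They were taken by gene name from the 34745 genes of the deposited table, and all 10 were found and passed the filter on low counts. The cells were bone marrow derived macrophages (BMMs) from wild-type, male C57BL/6 mice aged 8 weeks. They were kept without fetal bovine serum for 12 h and then received complete medium with RANKL at 100 ng/mL for 24 h, so RANKL, the cytokine that drives macrophages towards osteoclasts, was present in both groups. One group also received dimethyl itaconate (DI), a cell-permeable derivative of the macrophage metabolite itaconate, and the other received the vehicle DMSO. The labels give the DI dose as 20 mM, whereas the methods of the study give 20 μM. There was no group without RANKL, so the ligands could be compared between DI and vehicle but not with resting BMMs. Each group had 2 RNA-seq libraries. Nothing in the labels says that these came from separate animals or cultures, so the p-values measure only the spread between libraries.

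Chemokine ligands are named for the spacing of their first cysteines, CC or CXC, and act on G protein-coupled receptors of the recipient cell. CCL2 and CCL7 bind CCR2 and recruit monocytes. CCL3, CCL5, CCL6 and CCL9 bind CCR1, a receptor carried by osteoclast precursors. CXCL2 attracts neutrophils through CXCR2, CXCL10 attracts activated T cells through CXCR3, and CXCL16 is made as a membrane-anchored ligand of CXCR6. Many of these genes are textbook targets of NF-κB, and Cxcl10 is also a classical interferon-induced gene.

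The libraries held between 16085692 and 19403480 counts assigned to genes, and 12590 genes were tested. Of the 10 markers of macrophage identity all passed the filter, with a summed level of 29025 to 29824 CPM (counts scaled to the size of each library with edgeR's TMM factors) with DI and 22796 to 23678 CPM with DMSO. Most of this sum was Lyz2, at 22772 and 23786 CPM with DI and 18289 and 17630 CPM with DMSO. Markers of B cells summed to at most 0.600 CPM in any library, with Pax5 at 0 in every library, and markers of mast cells and basophils to at most 0.0600 CPM. T and NK cell markers summed to 0.693 to 1.05 CPM with DI and 0.240 to 0.591 CPM with DMSO, with Cd3e, Cd3g, Ncr1 and Nkg7 at 0. Neutrophil markers summed to 25.7 to 26.9 CPM with DI and 18.7 to 19.9 CPM with DMSO, of which most was Csf3r (called higher, 0.48, SE 0.09, a call lost in 7 of the 14 settings, among them each that left out a library), and Ly6g and Retnlg were at 0. Dendritic cell markers summed to 79.6 to 82.5 CPM with DI and 96.4 to 106 CPM with DMSO, of which nearly all was Bst2 (called lower, -0.32, SE 0.06, a call lost without DI library 2 or DMSO library 1). Siglech was at 0 in every library, and Flt3 and Ccr7 had at most 1 count in any library. The lower dendritic sum with DI was thus that of Bst2, at 81.6 and 79.0 CPM with DI and 105 and 95.8 CPM with DMSO. Stromal markers summed to 39.4 to 41.9 CPM with DI and 43.6 to 49.0 CPM with DMSO. The part of these shifts in the results below was not tested, and in bulk RNA fewer cells of a type and less RNA per cell cannot be told apart.

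With DI, 5 of the 10 ligand genes were lower and 0 higher. Cxcl10 fell most, to 0.236 of its vehicle level, followed by Ccl7 at 0.547 and Ccl9 at 0.633, whereas Cxcl16 at 0.815 and Ccl6 at 0.825 fell by less. Ccl2, Ccl3, Ccl4, Ccl5 and Cxcl2 were not called. The calls are from edgeR's quasi-likelihood test, at a Benjamini-Hochberg adjusted p under 0.05 over all tested genes. At an unadjusted p under 0.05 the count was also 5 lower and 0 higher, and DESeq2 called 4 lower and 0 higher. Among all tested genes 14.8% were called, 7.70% lower and 7.14% higher with DI. The split over all genes was 969 lower and 899 higher, and with scaling by library size only it was 1932 lower and 548 higher, while the same 5 ligands were called. The median log2 fold change of the 10 ligands was -0.24, beside 0.00 for all genes. The libraries of the 2 groups did not overlap for 8 of the ligands, beside 58.6% of all tested genes. The calls of Cxcl10, Ccl9 and Cxcl16 held in all 14 alternative settings, and those of Ccl6 and Ccl7 did not, as given with each gene.

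**Figure D1:**
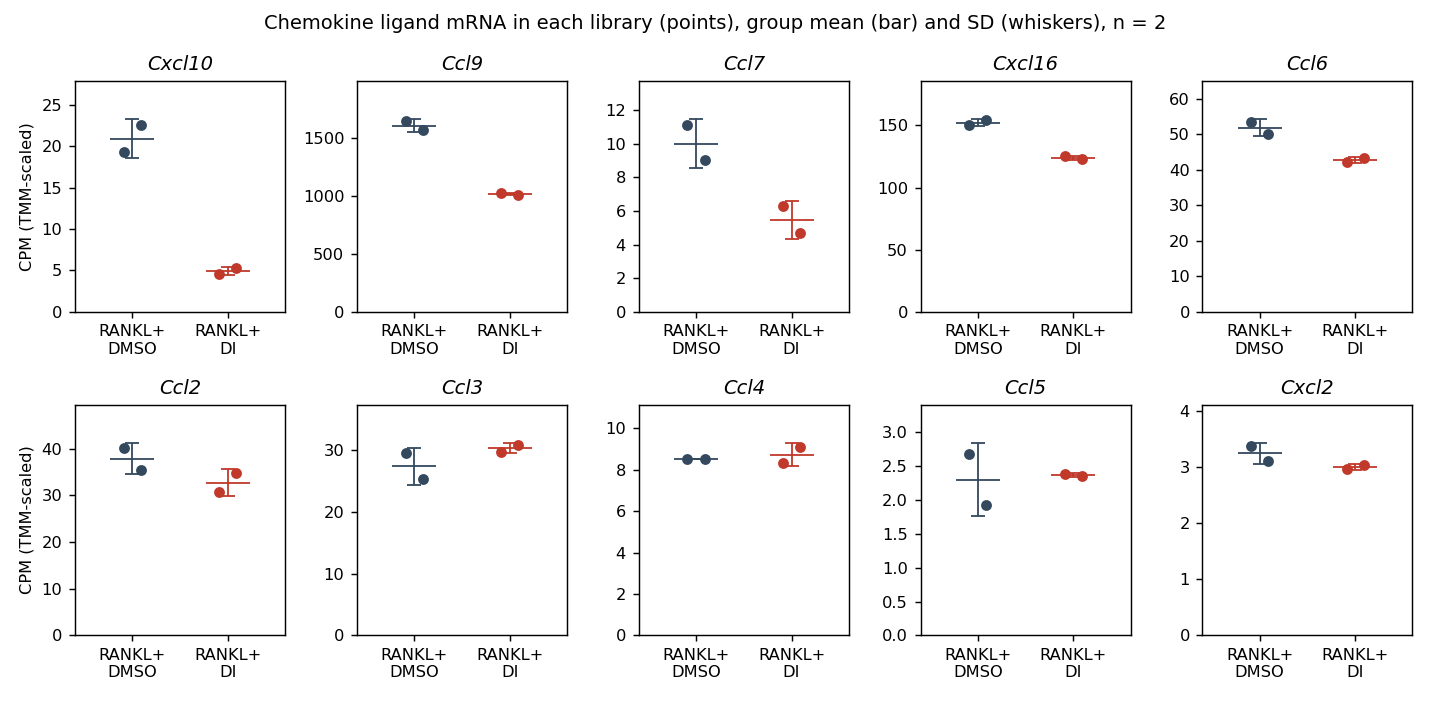
Level of each chemokine ligand in CPM (linear axes from 0, 1 panel per gene, each with its own scale). Points are libraries, and short horizontal lines with whiskers are the mean and SD of the 2 libraries of a group. The vehicle libraries of Cxcl10 sit at 19.3 and 22.6 CPM and the DI libraries at 4.60 and 5.28 CPM, whereas for Ccl4 and Ccl5 the groups overlap.

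The sequence just before the start of 3 ligand genes is shown because these genes were the one that fell most with DI (Cxcl10), the most abundant one (Ccl9), and one that was not called but holds a motif found in the other two (Cxcl2). Each run is the 250 bases upstream of the RefSeq start, 5′ to 3′ on the gene's own strand, in GRCm38.p6. Capitals mark matches to any of 4 searched motifs. The windows are chr5:92348890-92349139 on the minus strand for Cxcl10, chr11:83578637-83578886 on the minus strand for Ccl9 and chr5:90903649-90903898 on the plus strand for Cxcl2. For Cxcl2 the RefSeq start lies inside the gene as placed in the deposited table, which begins at 90903871. The last bases of its window are therefore within that gene.
Cxcl10: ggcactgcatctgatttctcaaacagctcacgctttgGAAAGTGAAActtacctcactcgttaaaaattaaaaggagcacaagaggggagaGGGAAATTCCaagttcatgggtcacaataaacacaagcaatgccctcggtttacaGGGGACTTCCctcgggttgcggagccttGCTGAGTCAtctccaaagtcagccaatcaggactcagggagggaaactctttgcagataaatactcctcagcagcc
Ccl9: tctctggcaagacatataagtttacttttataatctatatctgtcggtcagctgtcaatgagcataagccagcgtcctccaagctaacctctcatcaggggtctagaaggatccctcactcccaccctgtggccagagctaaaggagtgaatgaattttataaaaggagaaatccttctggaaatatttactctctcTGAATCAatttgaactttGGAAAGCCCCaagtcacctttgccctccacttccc
Cxcl2: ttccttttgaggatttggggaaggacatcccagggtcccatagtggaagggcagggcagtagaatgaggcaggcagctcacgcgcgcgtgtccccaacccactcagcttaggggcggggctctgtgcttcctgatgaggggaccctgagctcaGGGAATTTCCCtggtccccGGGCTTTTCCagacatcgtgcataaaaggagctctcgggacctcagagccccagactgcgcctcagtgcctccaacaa
The RefSeq table matched 5 of the 10 ligands, namely Ccl3, Ccl6, Ccl9, Cxcl2 and Cxcl10, and did not match Ccl2, Ccl4, Ccl5, Ccl7 and Cxcl16. Both strands were searched.

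The core of the interferon-stimulated response element, GAAANNGAAA, lay in the Cxcl10 window at -213 to -204 from the start and in none of the other 4 windows, beside 3.04% of 27025 RefSeq promoter windows of the same length. The NF-κB motif GGGNNNTTCC lay in the windows of Cxcl10, Cxcl2 and Ccl9, beside 4.60% of all windows. In Cxcl10 its matches were at -159 to -150 and -104 to -95. In Cxcl2 they were at -97 to -88, overlapped by a match on the other strand, and at -78 to -69. In Ccl9 a single match lay on the opposite strand at -35 to -26. The AP-1 motif, searched as TGANTCA with any central base, lay in Cxcl10 at -74 to -68 and in Ccl9 at -53 to -47. This form is held by 6.87% of all windows. The central base is G or C in the stricter motif, which TGAGTCA of Cxcl10 fits and TGAATCA of Ccl9 does not. The core of the antioxidant response element, TGANNNNGC, lay in Cxcl10 at -76 to -68, overlapping the AP-1 match, and in Ccl6 at -38 to -30, but 35.1% of all windows hold it. Ccl3 had a match to none of the 4 motifs. Of the 3 genes with an NF-κB match, Cxcl10 and Ccl9 were called lower and Cxcl2 was not called. Without such a match, Ccl6 was called lower and Ccl3 was not called. A match is a description of letters, not of a bound site.

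**Figure D2:**
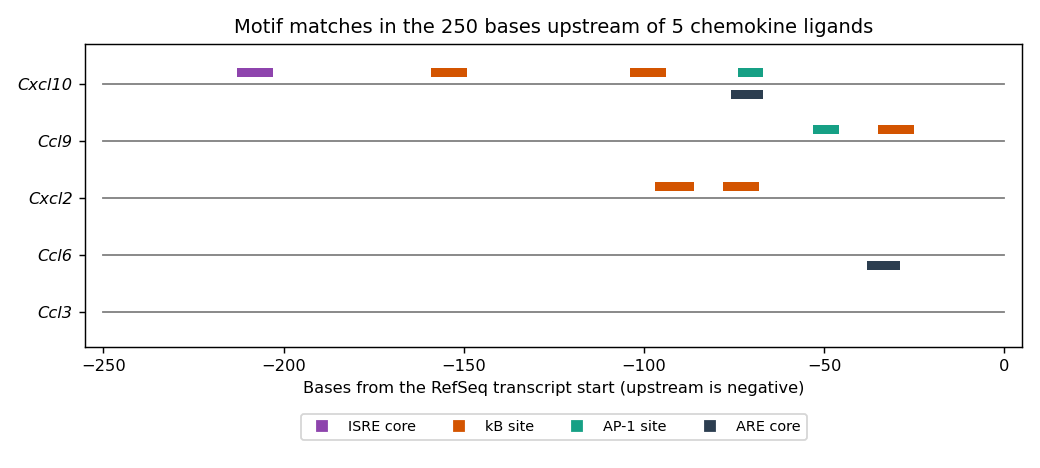
Positions of motif matches in the 250 bases upstream of the RefSeq start (x axis, bases from the start) for the 5 ligands with a RefSeq promoter (rows). Purple marks the interferon-stimulated response element core (ISRE), orange the NF-κB motif (kB) and green the AP-1 motif with any central base. Dark blue marks the loose form of the antioxidant response element core (ARE), which is drawn below the line. Cxcl10 holds matches to all 4 motifs, Cxcl2 to the NF-κB motif, and Ccl3 to none.

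In Cxcl10, the CXCR3 ligand, 79 and 99 reads were counted in the DI libraries, against 359 and 376 in the vehicle libraries, or 4.60 and 5.28 CPM against 19.3 and 22.6 CPM. Both DI libraries lay far below both vehicle libraries. The means were 4.94 ± 0.479 and 20.9 ± 2.33 CPM (SD, n = 2), 4.23-fold higher with vehicle. The log2 fold change was -2.08 (SE 0.14, 95% confidence interval -2.42 to -1.73, adjusted p = 9.20e-04 by edgeR's quasi-likelihood test), which placed Cxcl10 27th from the lowest among the 12590 tested genes. The gene lies at chr5:92346638-92348889, and 5.91% of its exon bases overlap Art3 on the opposite strand, which had 0 counts in every library. Cxcl9 and Cxcl11, the other CXCR3 ligands, were below the filter, with 5 and 2 counts against 7 and 9 for Cxcl9 and 0 and 4 against 5 and 10 for Cxcl11.

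The genes whose profile over the 4 libraries was most like that of Cxcl10 were Gbp5, Pgf and Gm12543. Likeness was the Euclidean distance between centred log2 CPM among 11008 genes, with a small constant added to each CPM before the log. Gbp5, an interferon-induced guanylate-binding protein, lay at a distance of 0.108 with 0.757 and 0.800 CPM with DI and 4.08 and 4.68 CPM with DMSO. Its log2 fold change was -2.48 (SE 0.24). The constant is large beside the DI levels of Gbp5 and shrinks its change, so its rank as the closest gene depends on that constant. Pgf, which encodes placental growth factor, lay at 0.221 with a log2 fold change of -2.26, and Gm12543 at 0.241 with -1.88.

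For Cxcl2, the CXCR2 ligand, the DI libraries held 51 and 57 counts, against 63 and 52 in the vehicle libraries, or 2.97 and 3.04 CPM against 3.38 and 3.12 CPM. The groups lay close to each other without overlapping. The log2 fold change was -0.11 (SE 0.19, interval -0.58 to 0.35, adjusted p = 0.737 by edgeR's quasi-likelihood test), so the data allow any difference within that interval. Its transcript shares 90.7% identity with Cxcl3 over 26.6% of its length, and whether the counting split reads between them was not tested.

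Cxcl16, the membrane-anchored CXCR6 ligand, had 125 and 123 CPM with DI and 150 and 154 CPM with vehicle. Both DI libraries were lower, by an amount well above the spread within either group. The means were 124 ± 1.63 and 152 ± 2.79 CPM (SD, n = 2), a log2 fold change of -0.30 (SE 0.04, interval -0.40 to -0.19, adjusted p = 0.00879 by edgeR's quasi-likelihood test). The gene lies at chr11:70453983-70459984. Zmynd15 overlaps 18.3% of its exon bases on the opposite strand, where the DI libraries held 101 and 107 counts and the vehicle libraries 170 and 114, against 2146, 2301, 2795 and 2565 for Cxcl16. Whether the counting used strand is not given in the sources used here, so those reads cannot be told apart.

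Ccl9, a CCR1 ligand, was by far the most abundant of the 10, at 17515 and 18901 counts in the DI libraries against 30542 and 26077 in the vehicle libraries. That is 1020 and 1008 CPM against 1640 and 1566 CPM, and the gap between the groups was far wider than the spread within either. The means were 1014 ± 8.77 and 1603 ± 52.3 CPM (SD, n = 2), a log2 fold change of -0.66 (SE 0.04, interval -0.75 to -0.57, adjusted p = 5.62e-04 by edgeR's quasi-likelihood test). Ccl9 ranked 57th of the tested genes by average level. The 10 ligands together made up 0.122% of the counts in each DI library and 0.203% and 0.194% in the vehicle libraries, and Ccl9 gave 79.7% to 83.8% of them. Summed over the 10 genes the level was 1268 ± 5.97 CPM with DI and 1917 ± 58.1 CPM with vehicle, and without Ccl9 it was 254 ± 2.80 and 314 ± 5.77 CPM (SD, n = 2).

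Ccl6, the neighbour of Ccl9 and also a CCR1 ligand, had 42.2 and 43.3 CPM with DI and 53.5 and 50.1 CPM with vehicle. The DI libraries were the lower pair. The log2 fold change was -0.28 (SE 0.07, interval -0.44 to -0.11, adjusted p = 0.0443 by edgeR's quasi-likelihood test), close to the threshold. The call was lost when any one library was left out, with adjusted p from 0.0665 without DMSO library 2 and 0.114 without DI library 2 to 0.143 without DI library 1 and 0.161 without DMSO library 1. DESeq2 gave 0.0822 and edgeR with the replicate block 0.0802, neither of which is under the threshold, within a range of 0.0121 to 0.161 over all the settings. The closest profiles to Ccl6 were those of Cstf1, Cant1 and Eif4b, at distances of 0.0173, 0.0187 and 0.0218 and with log2 fold changes of -0.29, -0.27 and -0.27.

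Ccl3, Ccl4 and Ccl5, which attract monocytes and T cells, were not called. Ccl3 had 29.7 and 30.9 CPM with DI and 29.5 and 25.3 CPM with vehicle, a log2 fold change of 0.14 (SE 0.10, interval -0.09 to 0.38). Ccl4 had 8.33 and 9.12 CPM with DI and 8.54 and 8.53 CPM with vehicle, a log2 fold change of 0.03 (SE 0.12, interval -0.26 to 0.33), and its groups overlapped. Ccl5 had 2.39 and 2.35 CPM with DI and 2.68 and 1.92 CPM with vehicle, a log2 fold change of 0.03 (SE 0.25, interval -0.59 to 0.65), and its groups overlapped too. The signs of Ccl4 and Ccl5 turned negative with scaling by library size only, at -0.07 for both. Ccl5 rested on 32 to 50 counts a library, and its interval is the widest of the 10.

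The CCR2 ligands Ccl2 and Ccl7 lie 8.26 kb apart on chromosome 11. The DI libraries held 108 and 88 counts of Ccl7, against 206 and 150 in the vehicle libraries, or 6.29 and 4.69 CPM against 11.1 and 9.01 CPM, and both DI values were lower. The log2 fold change was -0.88 (SE 0.19, interval -1.34 to -0.41, adjusted p = 0.0331 by edgeR's quasi-likelihood test). The call was lost without DI library 2 (-0.67, adjusted p = 0.0805 by edgeR), without DMSO library 1 (-0.72, 0.136) and without DMSO library 2 (-1.01, 0.0538), in a range of 0.00472 to 0.136 over all settings. Ccl2 had 30.6 and 34.7 CPM with DI and 40.2 and 35.4 CPM with vehicle, so that the groups nearly touched. Its log2 fold change was -0.21 (SE 0.10, interval -0.45 to 0.03, adjusted p = 0.212 by edgeR's quasi-likelihood test).

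**Figure D3:**
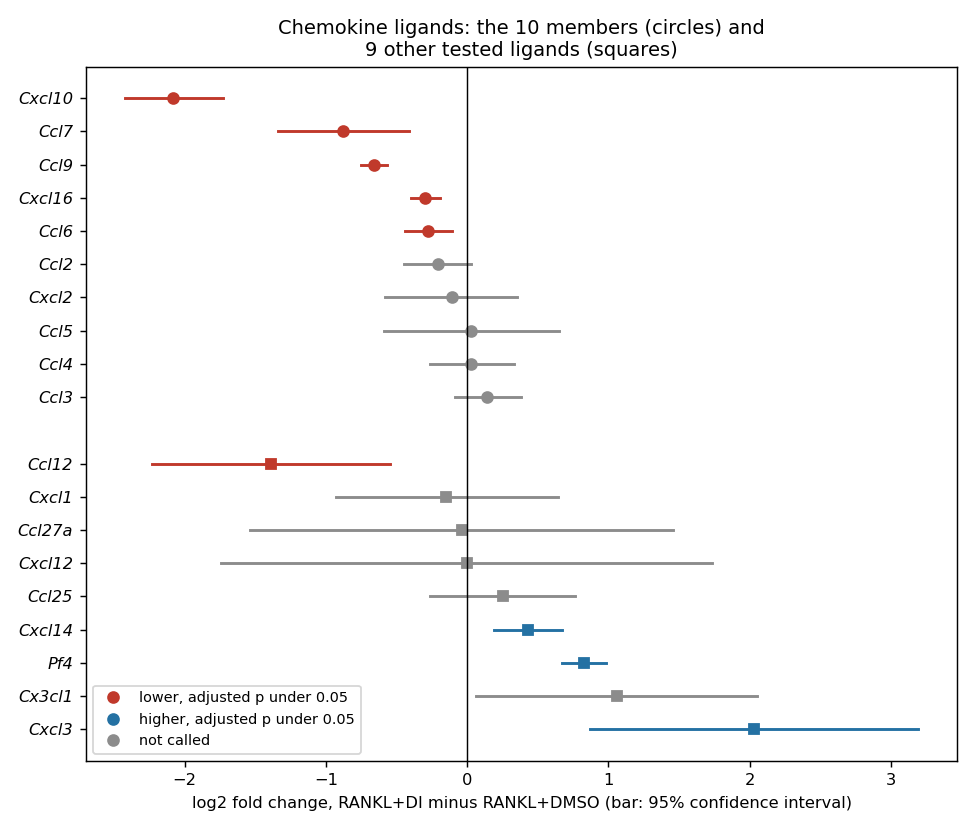
Log2 fold change (RANKL+DI minus RANKL+DMSO, x axis) of the 10 ligands (circles) and of 9 other tested chemokine ligands (squares), with 95% confidence intervals as bars. Red marks genes called lower, blue genes called higher and grey genes not called. Cxcl10 at -2.08 lies farthest to the left, and Pf4 at 0.83 is among the genes to the right.

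The Ccl genes lie in 2 groups on chromosome 11 (GRCm38), with 1478 kb between Ccl7 and Ccl5, at chr11:82035571-82037453 for Ccl2, chr11:82045712-82047525 for Ccl7, chr11:83525778-83530518 for Ccl5, chr11:83572919-83578636 for Ccl9, chr11:83587882-83593087 for Ccl6, chr11:83647844-83649355 for Ccl3 and chr11:83662584-83664683 for Ccl4. Cxcl2 lies at chr5:90903871-90905938. Ccl7 made up 17.1% (Wilson 95% interval 14.3 to 20.2) and 11.9% (9.77 to 14.4) of the Ccl2 and Ccl7 counts with DI and 21.6% (19.1 to 24.3) and 20.3% (17.5 to 23.3) with vehicle, and the intervals of DI library 1 and both vehicle libraries overlap. Ccl3 and Ccl4, 13.2 kb apart, kept close proportions, with Ccl3 at 78.1% and 77.2% with DI and 77.6% and 74.8% with vehicle. Ccl9 made up 96.0% and 95.9% of the counts of Ccl9 and Ccl6, which lie 9.24 kb apart, with DI and 96.8% and 96.9% with vehicle. Cxcl10 made up 60.8% and 63.5% of the counts of Cxcl10 and Cxcl2 with DI and 85.1% and 87.9% with vehicle. These intervals cover counting error only, and with 2 libraries a group the shares were not tested.

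Per kilobase of exon, which allows levels to be compared between genes, Ccl9 led with vehicle at 526 ± 17.2 CPM per kb (SD, n = 2). Cxcl16 followed at 50.3 ± 0.924, Ccl3 at 35.8 ± 3.92, Ccl2 at 33.2 ± 2.94 and Ccl6 at 28.9 ± 1.32 CPM per kb. The libraries of Ccl3 and Ccl2 overlapped, and so did those of Ccl4 at 12.9 ± 0.0112 and Ccl7 at 12.5 ± 1.81 CPM per kb. Cxcl10 lay at 9.29 ± 1.04, Ccl5 at 2.40 ± 0.562 and Cxcl2 at 1.57 ± 0.0890 CPM per kb. With DI the same genes led, with Ccl9 at 333 ± 2.88, while Cxcl10 at 2.19 ± 0.213 dropped below Ccl5 at 2.47 ± 0.0310 CPM per kb. The order below Ccl9 depends on the length used. By the longest coding transcript, Ccl2 ranked 3 and Ccl3 ranked 5, and with vehicle Cxcl10 ranked 6, above Ccl4 and Ccl7, at 15.5 CPM per kb, while Ccl5 was at 4.33 CPM per kb. By the deposited FPKM, Ccl3 at 37.1 ranked above Cxcl16 at 34.3.

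**Figure D4:**
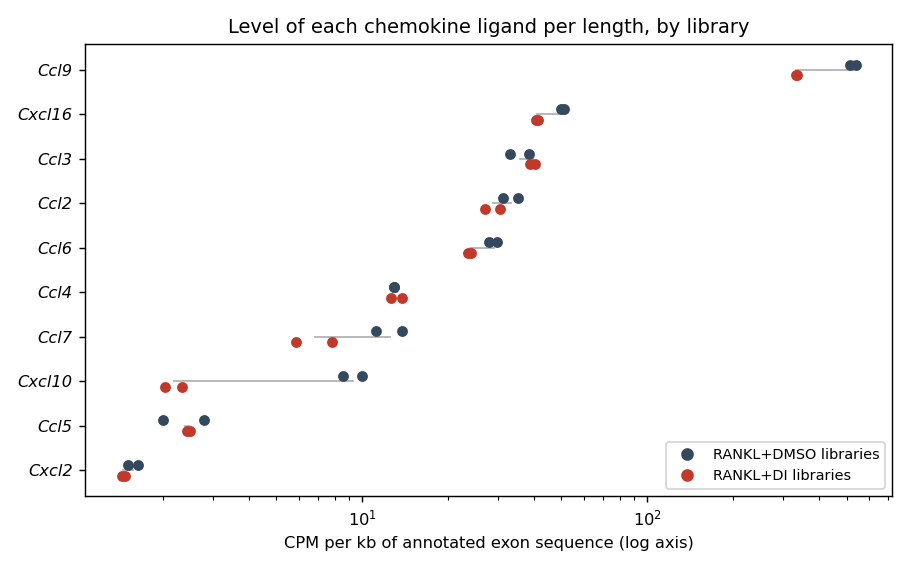
Level of each ligand per kilobase of exon in the vehicle and DI groups (log axis, CPM per kb, points are libraries, grey lines join the group means). Ccl9 stands at 526 CPM per kb with vehicle and 333 with DI, far above the next gene, Cxcl16, at 50.3 and 41.0.

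Messages of inflammatory ligands are often short-lived through AU-rich elements in their 3′ untranslated region. The nonamer ATTTATTTA was found in 1 of the 10 ligands, Cxcl2, with 4 matches, beside 6.16% of 21020 genes with an annotated 3′ untranslated region and 4.48% of the 14128 genes in the same length range. The shorter pentamer ATTTA was found 11 times in Cxcl2, 5 times each in Ccl3 and Ccl9, and not in Ccl5. The list for the decay of such messages holds 10 genes, some of which, such as Tnip1, are regulators of NF-κB. Of the 10, 2 were called lower, 0 higher and 8 were not called. Over all tested genes 7.70% were called lower and 7.14% higher, and neither this list nor those below were tested against these shares. At an unadjusted p under 0.05, 3 were lower and 0 higher, and DESeq2 called 2 lower and 0 higher. The 2 were Zfp36l1, which binds AU-rich elements, at 7.28 and 8.80 CPM with DI and 16.5 and 15.8 CPM with vehicle, and Tnip1, a partner of the NF-κB inhibitor A20, at a log2 fold change of -0.24 (SE 0.05), a call lost when any one library was left out.

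Of 29 other chemokine ligands, 9 were tested, 3 were called higher and 1 lower, with a median log2 fold change of 0.25, and 12 had 0 counts in every library. DESeq2, the replicate block and each fit without a library called 1 higher and 0 lower, and a filter of 10 counts in every library, which left 4 of them tested, 2 higher and 0 lower. At an unadjusted p under 0.05, edgeR gave 4 higher and 1 lower. Pf4, a platelet and myeloid CXC chemokine, rose from 32.2 and 32.5 CPM with vehicle to 57.2 and 57.4 CPM with DI (0.83, SE 0.06, adjusted p = 0.00129 by edgeR's quasi-likelihood test), and the 2 pairs stood well apart. Cxcl14 rose by 0.43 (SE 0.10), from 17.0 and 15.1 to 21.6 and 21.8 CPM. Cxcl3, a CXCR2 ligand, was at 14 and 20 counts in the DI libraries and at only 5 and 3 in the vehicle libraries (2.03, SE 0.47). Ccl12, a CCR2 ligand of mice, was at 11 and 9 counts in the DI libraries against 28 and 24 (-1.39, SE 0.34). The calls of Cxcl14, Cxcl3 and Ccl12 were lost whenever any one library was left out, with the adjusted p rising to 0.124, 0.209 and 0.220 over the settings run.

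Among 24 chemokine receptors 8 were tested, 1 was called higher and 1 lower, with a median log2 fold change of -0.16. The share called in either direction over all tested genes was 14.8%. Cx3cr1, the fractalkine receptor, fell from 36.5 ± 3.28 to 24.5 ± 2.16 CPM (SD, n = 2), a log2 fold change of -0.57 (SE 0.10), and lost its call without DMSO library 2, at -0.48. Ccr1, the receptor of Ccl3, Ccl5, Ccl6 and Ccl9, had 140 and 137 CPM with DI and 121 and 109 CPM with vehicle (0.26, SE 0.06). Its call was lost with scaling by library size only, on both FPKM scales, and without DI library 1, DI library 2 or DMSO library 2, with log2 fold changes from 0.16 to 0.28 there. Of 32 genes of receptor signalling, 5 were called higher and 2 lower, with a median of 0.13. DESeq2 called 3 higher and 2 lower, and with scaling by library size only, on both FPKM scales, with the replicate block, and without DI library 1 or DMSO library 2, 1 was called higher and 2 lower. Pik3r5, a regulatory subunit of the PI3K activated by these receptors, fell by 0.43 on the log2 scale, Grk3, a receptor kinase, fell by 0.92, and Gng2, a G protein gamma subunit, rose by 0.32.

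Of 9 genes whose products cut or shed chemokines, 8 were tested, 2 were called higher and 2 lower, with a median log2 fold change of 0.01. Mmp8 rose from 116 and 99.8 CPM to 236 and 234 CPM (1.12, SE 0.07) and Mmp12, the macrophage elastase, from 5101 and 4885 CPM to 9536 and 8230 CPM (0.83, SE 0.07). Mmp9, a gelatinase of osteoclasts, fell from 90.9 and 86.2 CPM to 30.5 and 26.5 CPM (-1.64, SE 0.09), and Mmp14, a membrane-bound protease, from 53.1 and 46.5 CPM to 27.8 and 26.2 CPM (-0.88, SE 0.09). These 4 calls held in all 14 settings.

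Of 20 regulators of the NF-κB and AP-1 pathways, 3 were called higher and 7 lower, with a median log2 fold change of -0.15. Fos, a subunit of AP-1, fell by 0.60 on the log2 scale, Fosl2 by 0.57 and Junb by 0.29. Nfkbia, which encodes the inhibitor IκBα and is itself an NF-κB target, fell by 0.49, and Cebpb, a transcription factor of myeloid cells, rose by 0.80. Of 18 regulators of interferon responses 17 were tested, 1 was called higher and 4 lower, with a median of -0.03. Stat2 and Irf9, whose products are subunits of the factor that binds the interferon-stimulated response element, fell by 0.61 and 0.46, and Irf7 fell by 1.18. Irf8, a factor of the macrophage lineage, rose by 0.45. Ifnb1, the interferon beta gene, had 0 counts in every library, which allows up to 3 counts or 0.160 to 0.180 CPM per library.

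Of 10 osteoclast genes 8 were tested, 2 were called higher and 5 lower, with a median log2 fold change of -0.51. Ocstamp, needed for osteoclast fusion, fell by 2.52, Acp5, the TRAP enzyme, by 0.95 and Nfatc1, the master factor of osteoclasts, by 0.43. The 2 called higher were Itgb3, the beta chain of the vitronectin receptor, at 0.56 (SE 0.08), and Atp6v0d2, a subunit of the proton pump, at 0.27 (SE 0.03). Of the 10 macrophage genes 6 were called higher and 2 lower, with a median of 0.18. Itgam rose by 0.57 and Lyz2 by 0.37, whereas Cd14 fell by 0.51.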

How the data were processed

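RNA from RANKL-treated BMMs was sequenced in 4 libraries (2 with DI, 2 with DMSO), prepared with an mRNA-seq kit. The authors deposited raw counts per gene and FPKM values on GRCm38 (mm10), and the aligner, the counter and its strand setting are not given in the sources used here. The deposited FPKM divide by the summed length of all distinct annotated exons, within 1% for 73.3% of 18186 genes, so levels between genes were taken as CPM per kilobase of the union of exons (GENCODE). A second deposited table repeats these values with annotation and was not used.

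Counts were fitted with edgeR 4.0.16 in R 4.3.3 (TMM factors of 0.963 to 1.04, filterByExpr, quasi-likelihood test, Benjamini-Hochberg adjustment over 12590 genes, threshold 0.05). SE was the log2 fold change over the root of F. Alternatives used DESeq2 1.42.0, limma 3.58.1 with voom or on log2(FPKM + 1) and log2(FPKM + 0.01), other scalings and filters, a replicate block, and each library left out. The fit was tested on simulated data. Counts of replicates differed by more than sampling noise (chi-square per degree of freedom 7.57 and 7.74). Wilson intervals and limits of a count of 0 cover counting error only. Transcripts were compared with BLAST+ 2.17.0.

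The named genes were all 10 ligands, every called gene of the other ligands, receptors and processing lists, up to 4 or 5 called genes with the smallest p in each other list, the 3 closest profiles to the called ligands with the lowest and the highest fold change, and genes overlapping a ligand. Cxcl9, Cxcl11, Ifnb1, Itgb3 and Atp6v0d2 were named after their values were seen. The members and lists were chosen with earlier results of these data known. Some genes that this rule names are not reported here.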

Additional observations from a re-analysis of the deposited data

How the results depend on the processing

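Over 14 alternative settings, 123 of 140 values of the 10 ligands kept their direction and their side of the threshold, 9 lost the call and 8 changed sign. The number of called ligands was 5 in the main analysis, 4 with DESeq2 and with the replicate block, and 3 to 4 when 1 library was left out. Over all genes 1868 were called, 1389 with the replicate block, and 1087 to 1394 when 1 library was left out. The differences between libraries 1 and 2 did not correlate between the groups (r = -0.0501 over 12590 genes). Whether libraries of the same number shared an animal or a batch is not given, and this correlation cannot show it. With scaling by library size only, 2480 genes were called (548 higher, 1932 lower), with log2(FPKM + 1) 2210 (536 and 1674) and with log2(FPKM + 0.01) 2203 (529 and 1674), while the median of all genes moved by -0.10, -0.07 and -0.10. Ccl4 changed sign, to -0.07 under each of these 3, and ran from -0.03 to 0.10 when 1 library was left out. Ccl5 went to -0.07, -0.03 and -0.04, and ran from -0.18 to 0.30. Neither was called. Of 486 values of 35 named genes of the other lists, 439 kept their direction and side of the threshold, 47 lost the call and 0 changed sign. Of 210 counts over the lists, 28 moved by over 1.5 times, among them those of the other ligands, the receptors, receptor signalling and mRNA decay. On log2(FPKM + 1) Cxcl10 was at -1.47, Ocstamp at -1.03, Ccl12 at -0.75 and Cxcl3 at 0.19, since the pseudocount is large beside their values. For Ccl5 and Cxcl2, at 32 to 63 counts a library, low counts and the small number of libraries limit what could be detected.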
